A study of Mus musculus with 6 samples.

Results

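The genes described here are the Sprr genes, which encode the small proline-rich proteins of the cornified envelope, in mouse pancreatic ductal adenocarcinoma organoids with and without a knockdown of Jag1. Members were all genes whose symbol starts with Sprr. Of 14254 genes with expression values, 10 met this rule: Sprr1a, Sprr2a1, Sprr2a2, Sprr2a3, Sprr2b, Sprr2d, Sprr2e, Sprr2h, Sprr2i and Sprr2k. The gene annotation of the mouse (GENCODE M21, GRCm38) holds 17 Sprr genes, and the remaining 7 (Sprr1b, Sprr2c-ps, Sprr2f, Sprr2g, Sprr2j-ps, Sprr3 and Sprr4) were not analysed here. All organoids were of 1 line, KPF_5.3G, and grew in the same medium, advanced DMEM/F12 with B27, nicotinamide, N-acetylcysteine, gastrin, FGF-10, EGF, R-spondin-1 and Noggin. The control group was 3 libraries of organoids carrying a lentiviral control short hairpin RNA (shCtrl, genotype labelled WT), and the knockdown group was 3 libraries of organoids carrying a lentiviral hairpin against Jag1 (shJag1_3), a membrane-bound ligand of the Notch receptors. The design thus holds 1 organoid line and 1 hairpin, and p-values measure only the spread between these 6 libraries.

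Small proline-rich proteins are made by stratified squamous epithelia as their cells mature. Transglutaminases cross-link them to loricrin, involucrin and other proteins beneath the plasma membrane, which builds the cornified envelope, the tough shell of the outermost cells of the skin. Their genes lie side by side in the epidermal differentiation complex, together with the other envelope genes. Sprr1a and members of the Sprr2 group are also known as genes that stressed or regenerating simple epithelia switch on, and Sprr2a is a gene of the gut epithelium that responds to bacteria.

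The family was chosen by measured values, its differences between knockdown and control. Sprr1a was among the genes called by DESeq2 with the replicate number as a term. Sprr2a3 was called by limma without the first knockdown library, a fit that called 1 gene in all. The differences between knockdown and control are therefore given as a description for every member, with no test. Near-identical members share reads, which limits what the value of each of them says. Where a read matched several copies equally well, the way it was counted is not given in the sources used here.

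Copies of Sprr2a are the members that share most sequence. The coding sequences of Sprr2a1 and Sprr2a2 were identical over 252 bases, and that of Sprr2a3 matched them at 249 of 252 bases (98.8%). The 3 substitutions are G63A, G159T and A192T, with the Sprr2a1 base first, the position counted from 1 at the A of the start codon, and the Sprr2a3 base last. The 3 differing positions are in capitals in the sequences below, read from GENCODE M21 on the plus strand of GRCm38 at chr3:92219092-92219343 for Sprr2a1, and at chr3:92288588-92288839 for Sprr2a3. They are shown because a read that covers none of these positions cannot be assigned within the coding part.
Sprr2a1: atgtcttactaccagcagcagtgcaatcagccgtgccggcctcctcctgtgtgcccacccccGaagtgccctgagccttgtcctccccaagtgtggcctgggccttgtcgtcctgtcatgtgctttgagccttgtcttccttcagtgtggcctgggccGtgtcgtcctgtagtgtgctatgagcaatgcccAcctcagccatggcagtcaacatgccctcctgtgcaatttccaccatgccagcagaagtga
Sprr2a3: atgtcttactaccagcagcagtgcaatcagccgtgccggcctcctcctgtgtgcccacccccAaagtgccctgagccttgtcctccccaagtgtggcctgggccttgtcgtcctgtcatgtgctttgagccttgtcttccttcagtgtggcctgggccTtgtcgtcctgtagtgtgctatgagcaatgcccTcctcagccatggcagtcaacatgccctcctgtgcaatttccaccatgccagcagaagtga

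Over whole transcripts the sharing went further. Every stretch of 50 bases in the annotated transcripts was compared with the transcripts of all other genes. Of these stretches, 96.3% of Sprr2a1, 96.5% of Sprr2a2 and 61.1% of Sprr2a3 occurred in at least 1 other gene. At 100 bases these shares were 92.5%, 92.8% and 36.2%. The values of Sprr2a1 and Sprr2a2 thus rest on sequence that is almost all shared, whereas most 100-base stretches of Sprr2a3, pooled over its 2 annotated transcripts, are its own. The share was not measured for its shorter transcript of 682 bases alone, and which transcript is made is not known here. The share at 50 bases was 14.1% for Sprr2b, 12.5% for Sprr2i, 10.2% for Sprr2e and 4.27% for Sprr2d, and it was 0 for Sprr2h, Sprr2k and Sprr1a. Read length is not given in the sources used here. The annotated span of Sprr2a2 (chr3:92215920-92256724) also covers most of Sprr2a1 (chr3:92215799-92221911), on the same strand. Apart from the Sprr2a copies the closest pair in coding sequence was Sprr2e and Sprr2i, at 97.0% identity, and Sprr1a matched no Sprr2 member at more than 51.3%.

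Promoters of the members fell into separate kinds, and sequences are shown to mark where the searched motifs lie. Whether these motifs bear on the difference between knockdown and control was not tested. Each window ran from 250 bases before to 50 bases after the start site in RefSeq (GRCm38.p6), and all 10 members had one. The letters TGANTCA, the core motif of the AP-1 transcription factors (Jun and Fos), were found in 7 of 10 windows, those of Sprr1a, Sprr2b, Sprr2d, Sprr2e, Sprr2h, Sprr2i and Sprr2k, against 7.79% of 32544 distinct promoter windows of the same length. These same 7 windows held a TATA box (TATAAA, either strand), against 13.6% of all windows. Several of the 7 windows resemble each other in sequence, so they do not count as separate cases. In the Sprr1a window below, from the minus strand at chr3:92485832-92486131, capitals mark the AP-1 matches that begin at -146 and -116 and the TATA box that begins at -43, counted from the start site.
Sprr1a: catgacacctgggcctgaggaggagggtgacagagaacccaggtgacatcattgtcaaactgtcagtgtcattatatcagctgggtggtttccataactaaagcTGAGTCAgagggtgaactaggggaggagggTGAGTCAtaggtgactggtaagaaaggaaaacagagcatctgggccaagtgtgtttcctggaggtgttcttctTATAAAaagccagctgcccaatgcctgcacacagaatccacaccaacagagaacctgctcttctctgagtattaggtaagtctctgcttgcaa

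The Sprr2 members outside the Sprr2a copies carried the AP-1 letters at almost the same place. Their first match began between -198 and -193, and Sprr2k had another at -182. The TATA box began at -29 in all 6. The stretches around the AP-1 match are given below, on the plus strand of GRCm38.p6, with the match in capitals, to show their flanks. The flanks of Sprr2d, Sprr2e and Sprr2i resemble each other, those of Sprr2h and Sprr2k do so too, and Sprr2b differs from both kinds. They come from chr3:92316490-92316541 (Sprr2b), chr3:92338927-92338978 (Sprr2d), chr3:92351930-92351981 (Sprr2e), chr3:92385467-92385518 (Sprr2h), chr3:92407778-92407829 (Sprr2i) and chr3:92432366-92432417 (Sprr2k).
Sprr2b: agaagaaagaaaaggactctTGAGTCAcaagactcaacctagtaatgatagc
Sprr2d: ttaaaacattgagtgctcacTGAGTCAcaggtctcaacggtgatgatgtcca
Sprr2e: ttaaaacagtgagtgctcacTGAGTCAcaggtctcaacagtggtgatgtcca
Sprr2h: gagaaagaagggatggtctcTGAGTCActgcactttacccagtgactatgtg
Sprr2i: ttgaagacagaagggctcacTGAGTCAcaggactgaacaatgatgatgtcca
Sprr2k: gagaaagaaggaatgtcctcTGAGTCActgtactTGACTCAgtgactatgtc

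All 6 also held the octamer ATTTGCAT, beginning at -109 or -108, which 1.75% of all windows hold on either strand. That motif was added after the windows had been read. The Sprr2a windows held none of these motifs. Those of Sprr2a1 and Sprr2a2 were identical, and the first 272 bases of them are the last 272 of the Sprr2a3 window, which lies at chr3:92285054-92285353. The start sites of RefSeq and GENCODE lie 34727 bases apart for Sprr2a2, 113 for Sprr2a3, 85 for Sprr2b, 36 for Sprr2a1 and 14 for Sprr1a, and are the same for the other 5 members, so these windows, that of Sprr2a2 most of all, depend on the annotation used. CACCTG, the E-box that the ZEB repressors bind, was found on either strand in the windows of Sprr1a and the 3 Sprr2a copies, against 20.3% of all windows. TGGGAA, the core letters of RBPJ, the DNA-binding partner of Notch, stood on either strand in 6 of 10 (the 3 Sprr2a copies, Sprr2b, Sprr2d and Sprr2e), against 25.4%. The Sprr2a windows share most of their sequence, and Sprr2d and Sprr2e both have this match at -149. The windows with the E-box or the RBPJ letters therefore do not count as separate cases either. CACCC, the core of the KLF motif, was in 5 of 10 against 57.7%, and TTCNNNGAA, the STAT motif, in 2 of 10 against 8.33%. TGACNNNGC, the NRF2 motif, was in the Sprr1a window alone of the 10 and in 12.4% of all windows, and this match overlaps the AP-1 match at -146. A KLF match at -119 overlaps the other AP-1 match of Sprr1a. Such matches describe the letters of these windows and do not show that a factor binds there.

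The libraries held 22268997 to 30515717 reads in the control group and 23219455 to 35172593 in the knockdown group. Values are normalised counts, the reads of a gene divided by 1 size factor per library. Both replicate 1 libraries stood apart from the other 4 on the first principal component, which held 55.7% of the variance, so the results of members are also given without them where that moves them. The markers of pancreatic duct were all listed (10 of 10), with summed normalised counts of 186936 to 248791 in the controls and 242771 to 605214 in the knockdown. Of 12 markers of stratified squamous epithelium 5 were listed (Ivl, Lor, Krt10, Krt13 and Krt14), with sums of 1318 to 2316 and 1891 to 2451. Trp63 and Krt5, which define its basal cells, were not among the listed genes. Of 7 fibroblast markers Pdgfra and Pdgfrb were listed, with sums of 35.6 to 44.8 in the controls and 28.9 to 45.5 in the knockdown. Mitochondrial genes took 0.595%, 1.55% and 2.03% of gene reads in controls 1, 2 and 3 and a lower share, 0.555%, 1.02% and 1.20%, with the Jag1 hairpin. The part of these markers and shares in the results below was not tested. By replicate number, 1 to 3, Jag1 itself had 412, 983 and 847 normalised counts with the control hairpin, against 226, 321 and 557 with the Jag1 hairpin. Its log2 difference was -1.03, with an adjusted p of 0.691 in limma and 0.00628 in DESeq2 with the replicate number as a term.

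As a family, the Sprr genes took a larger share of the reads in each knockdown library than in the control of the same replicate number. Scaled to the gene reads of a library, the 10 genes together made up 10.8, 119 and 36.1 CPM in the controls, here and below in the order of replicate number, and 58.7, 987 and 696 CPM in the knockdown. The groups overlapped, since control 2 lay above knockdown 1. All 10 members had a higher mean in the knockdown group. Within replicate numbers 9, 9 and 10 of 10 were higher in the knockdown of pairs 1, 2 and 3. In all 3 pairs 8 of 10 were higher, where 22.3% of the 13997 genes tested were. Groups did not overlap for 3 of 10 members, the Sprr2a copies that share sequence, where 11.7% of tested genes did not overlap in either direction and 6.29% did not overlap and were higher in the knockdown. These shares are printed for scale only, since the same contrast chose the family. The median log2 difference over the 10 members was 2.95, and it was 1.996, 2.99 and 3.23 in pairs 1, 2 and 3, against 0.00 over all tested genes. In bulk RNA, more cells that express a gene cannot be told apart from more RNA per cell.

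**Figure D1:**
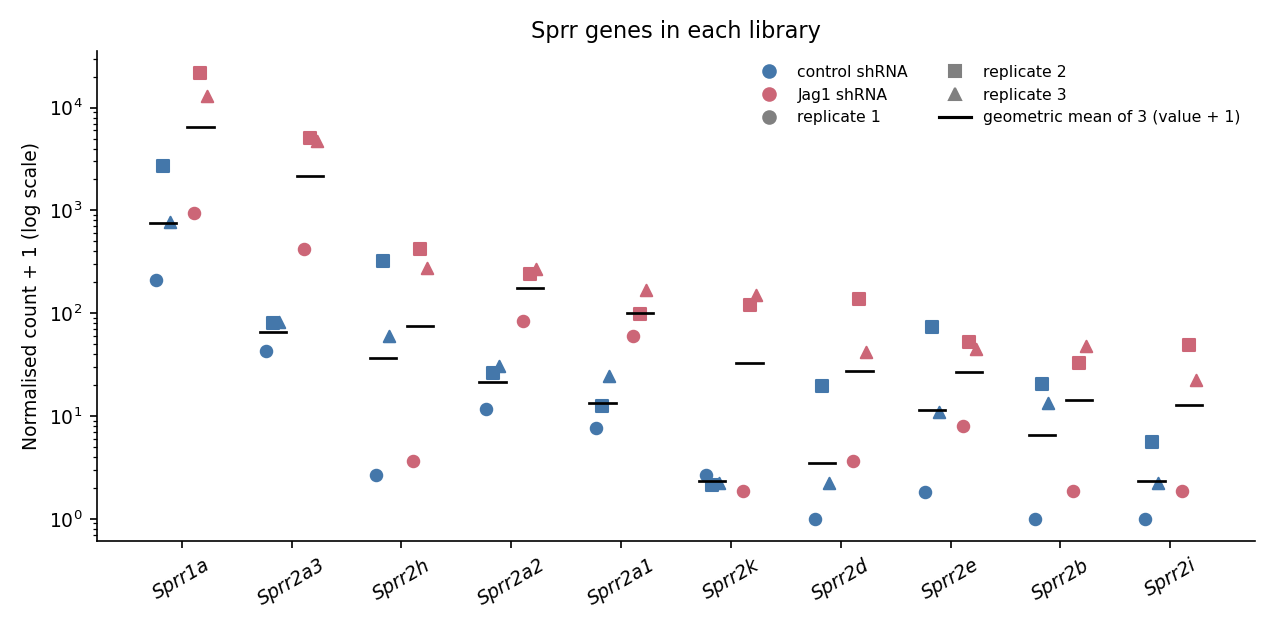
Normalised count plus 1 of each Sprr gene (log scale) in the 3 control libraries (blue) and the 3 Jag1 knockdown libraries (red), with the replicate number as the symbol and the geometric mean of the 3 libraries as a bar. Sprr1a and Sprr2a3 reach the highest knockdown values, and replicate 1 (circles) is the lowest knockdown library for all 10 genes.

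Sprr1a, the most abundant member, encodes a protein known from differentiating keratinocytes and from regenerating nerve. It lies on the minus strand at chr3:92483952-92485895 (ENSMUSG00000050359). It had 208, 2723 and 775 normalised counts in the control libraries against 947, 21714 and 12869 in the knockdown libraries. Each knockdown library was above the control of its number, but knockdown 1 was below control 2, so the groups overlapped. The ratio of knockdown to control was 4.55, 7.97 and 16.6 in pairs 1, 2 and 3, and the mean of the knockdown was 11843 ± 10421 against 1235 ± 1319 (SD, n = 3 each). The log2 difference was 3.08 (SE 1.35), and 3.52 with replicates 2 and 3 alone. Ordered by normalised count, Sprr1a was gene number 9566, 2261 and 6492 of all listed genes in the controls and number 5734, 155 and 291 in the knockdown libraries. It thus moved into the most abundant genes in knockdowns 2 and 3, and not in knockdown 1.

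Sprr2a3 was the Sprr2 member with the highest counts in the knockdown. It lies on the plus strand at chr3:92285417-92291405 (ENSMUSG00000074445). Sprr2a3 had 42.3, 79.2 and 81.0 normalised counts in the controls and 420, 5018 and 4735 in the knockdown. The controls lay close together and every knockdown library was above all of them. Ratios within pairs were 9.94, 63.3 and 58.5. Means were 67.5 ± 21.9 and 3391 ± 2577 (SD, n = 3 each), with a log2 difference of 5.03 (SE 0.95), and of 5.91 with replicates 2 and 3 alone. Of all genes, its difference in pairs 1, 2 and 3 was number 8, 18 and 17 in absolute size, whereas that of Sprr1a was number 62, 272 and 97.

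Sprr2a1 and Sprr2a2, the copies with identical coding sequence, had lower counts and a steadier difference. Sprr2a1 (ENSMUSG00000078664) had 6.63, 11.5 and 23.7 normalised counts in the controls and 59.6, 98.3 and 168 in the knockdown, a log2 difference of 2.92 (SE 0.59). Sprr2a2 (ENSMUSG00000068893) had 10.8, 25.3 and 29.9 in the controls and 83.3, 241 and 271 in the knockdown, a log2 difference of 3.06 (SE 0.60). For both, every knockdown library was above every control, and the ratios within pairs ran from 7.10 to 9.0 for Sprr2a1 and from 7.74 to 9.53 for Sprr2a2. The difference was about the same size in replicate 1 as in the others, unlike that of Sprr2a3. As a result the reads of Sprr2a3 were 2.43, 2.16 and 1.51 times the sum of the other copies in the controls and 2.94, 14.8 and 10.8 times that sum in the knockdown. Reads that match several copies enter this ratio in a way that is not known here.

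Sprr2k and Sprr2i, both Sprr2 members from the distal end of the Sprr2 row, had few reads in the controls and in knockdown 1 and more in knockdowns 2 and 3. Sprr2k (chr3:92432582-92433925) had 2, 1 and 1 reads in the controls and 1, 98 and 196 in the knockdown, which are 0.88, 120 and 150 normalised counts in the latter. Its knockdown 1 was no higher than the controls, and none of its 50-base stretches occurs in another gene. Sprr2i (chr3:92407991-92409271) had 0, 4 and 1 reads in the controls and 1, 39 and 28 in the knockdown. Log2 differences were 3.80 for Sprr2k and 2.45 for Sprr2i, on a scale where 1 is added to each value, which understates changes of genes this low. With replicates 2 and 3 alone they were 5.94 for Sprr2k and 3.22 for Sprr2i. On the reads themselves DESeq2 without the replicate number gave 6.05 for Sprr2k and 5.65 for Sprr2a3, whereas on the log2 scale the difference was 3.80 for Sprr2k and 5.03 for Sprr2a3, so these members cannot be ranked by size of difference. Both fell below the level at which genes were tested, at least 10 normalised counts in 3 libraries, and the other 8 members passed it.

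Sprr2d had 0, 18.4 and 1.25 normalised counts in the controls and 2.63, 136 and 41.3 in the knockdown. It was higher in the knockdown of each pair, with a log2 difference of 2.97 (SE 1.58), and of 3.53 with replicates 2 and 3 alone. Control 3 rests on 1 read, and control 2 lay above knockdown 1. Sprr2b had 0, 19.5 and 12.5 in the controls and 0.88, 31.9 and 47.4 in the knockdown. Its log2 difference was 1.15 (SE 1.59), below the spread between libraries, and without control 1 it was -0.21. Sprr2b was higher in the knockdown of each pair (log2 0.91, 0.68 and 1.85), and leaving out control 1 keeps knockdown 1, which has 1 read.

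Sprr2h, the Sprr2 member with the highest mean in the controls, differed more between replicates than between groups. Its normalised counts were 1.66, 320 and 58.5 in the controls and 2.63, 418 and 275 in the knockdown, a log2 difference of 1.02 (SE 2.30). Control 2 was above knockdown 3, and in pairs 1 and 2 the knockdown was close to the control (log2 0.45 and 0.38). The difference was -0.89 without control 1 and -0.23 without knockdown 2. Sprr2e had a like spread, with 0.83, 72.4 and 9.97 in the controls and 7.02, 51.6 and 43.6 in the knockdown, a log2 difference of 1.23 (SE 1.40). In pair 2 it was lower in the knockdown (log2 -0.48), and without control 1 the difference was -0.09. With both replicate 1 libraries left out, the difference was 1.26 for Sprr2b, 1.297 for Sprr2h and 0.77 for Sprr2e. Among the alternatives run, the direction for these 3 genes turned only where 1 library was left out and its partner of the same number was kept.

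Replicate 1 held few Sprr reads other than those of Sprr1a and the Sprr2a copies. In control 1, 6 of 10 members had 3 reads or fewer, and in knockdown 1 this held for 5, against 1 and 3 in controls 2 and 3 and none in knockdowns 2 and 3. Sprr1a made up 76.5%, 83.1% and 77.9% of the reads of the family in the controls and 62.1%, 77.9% and 69.1% in the knockdown. The share of Sprr2a3 was 15.5%, 2.42% and 8.15% in the controls and 27.5%, 18.0% and 25.4% in the knockdown. Within each pair the share of Sprr1a was lower and that of Sprr2a3 higher in the knockdown library.

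Per kilobase of annotated exon, which allows genes to be compared, Sprr1a was the highest member in all 6 libraries. It had 258, 3378 and 961 normalised counts per kilobase in the controls and 1175, 26940 and 15967 in the knockdown. In knockdowns 2 and 3 Sprr2a3 followed with 1741 and 1642, then Sprr2h with 556 and 366. The others had 32.7 to 200.3 in knockdown 2 and 34.7 to 235 in knockdown 3. Sprr2k, with 189 and 235, was above Sprr2e, with 79.8 and 67.3, in both libraries. Sprr2d, with 200.3 and 60.6, overlapped with both and cannot be ordered against them. In controls 2 and 3 Sprr2h had 426 and 77.9 per kilobase, above Sprr2a3 with 27.5 and 28.1. These levels depend on which transcript is made. Per kilobase of the shortest annotated transcript, knockdowns 2 and 3 would have 7358 and 6943 for Sprr2a3 (682 bases), 1407 and 926 for Sprr2h (297 bases) and 334 and 376 for Sprr2a2 (722 bases). Controls 2 and 3 would have 116 and 119 for Sprr2a3 and 1079 and 197 for Sprr2h. With the shorter length used for Sprr2a3 alone, Sprr2a3 would lie above Sprr2h in control 3, so their order in the controls is not settled.

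Profiles over the 6 libraries fell together in the same way. On log2 values, Sprr1a correlated with Sprr2i at r = 0.99 and with Sprr2d at r = 0.98, the Sprr2a copies with each other at r = 0.95 to 0.98, and Sprr2b with Sprr2h at r = 0.97, whereas Sprr2a1 and Sprr2h had r = 0.43. These are 6 libraries that share the gap between replicate 1 and the others, and the Sprr2a copies share reads, so the values describe the profiles only.

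Both ends of the Sprr cluster were set beside the genes next to it. The 17 Sprr genes of the annotation span 284.7 kb (chr3:92215799-92500493), with 13 on the plus strand and 4 on the minus strand. Within 1000 kb of the cluster, 14 other genes were listed and tested, 5 of them between the Sprr genes. DESeq2 with the replicate number called 4 of these 14 higher and none lower (1 had no adjusted p), where it called 7.44% of all genes with an adjusted p (4.76% higher and 2.68% lower), and limma called none. The median log2 difference of the 14 was 0.50. The 4 were Prr9, Lelp1, Gm35439 and Gm4858.

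Prr9, a proline-rich protein gene 91.9 kb before the cluster, had 0.83, 37.9 and 8.72 normalised counts in the controls and 15.8, 230 and 148 in the knockdown. Lelp1, a late cornified envelope-like gene 73.1 kb before it, had 0.83, 44.8 and 9.97 and 12.3, 181 and 209. Log2 differences by DESeq2 with the replicate number were 3.40 (SE 0.59, adjusted p = 1.81e-06) for Prr9 and 3.24 (SE 0.65, adjusted p = 8.02e-05) for Lelp1. In limma the adjusted p was 0.686 and 0.702, and for both genes control 2 lay above knockdown 1. Gm35439, the nearest listed gene on that side at 37.9 kb, had a log2 difference of 2.57 (SE 0.58) and an adjusted p of 0.000652 by DESeq2 with the replicate number. Gm4858, 568 kb on the other side, had 28.2, 1.15 and 0 normalised counts in the controls and 36.8, 129 and 138 in the knockdown, with an adjusted p of 0.0395 in the same fit.

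Loricrin and involucrin, the main partners of the Sprr proteins in the envelope, showed no difference that passed a test. Lor, 132.7 kb before the cluster, had 509, 864 and 512 normalised counts in the controls and 598, 347 and 333 in the knockdown. Ivl, the nearest listed gene on the other side at 70.4 kb, had 265, 1209 and 546 and 815, 484 and 574. Groups overlapped for both, log2 differences were -0.57 and 0.12, and DESeq2 with the replicate number gave adjusted p-values of 0.352 and 0.943. The 5 genes between the Sprr genes, all with Gm names, had log2 differences of -0.35 to 1.06, and none was called.

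**Figure D2:**
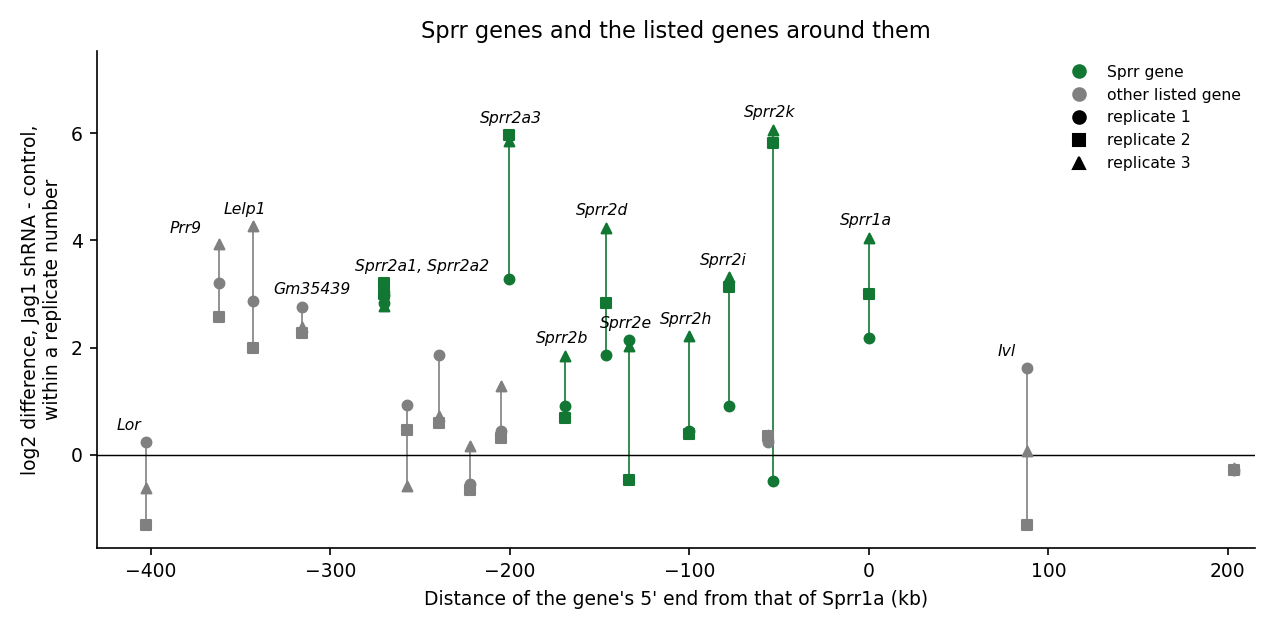
Log2 difference between the knockdown and the control library of each replicate number (symbols; the line joins the 3 pairs) for Sprr genes (green) and other listed genes (grey), by the distance of the 5' end from that of Sprr1a in kb. Prr9, Lelp1 and Gm35439 lie above 0 in all 3 pairs, and Lor and Ivl lie on both sides of 0; Crct1, Gm4858 and Tchh lie farther away and are not drawn.

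Genes most like Sprr1a were sought among 10900 other tested genes with a mean of at least 50 normalised counts, by the root mean square distance between log2 profiles over the 6 libraries, each centred on its mean. Among the 6 nearest were Prr9 (distance 0.32), Cyp2s1 (0.40), Lelp1 (0.41), Itih5 (0.71) and Adm (0.74). Prr9 and Lelp1 are thus near Sprr1a in profile. On the chromosome they lie beyond the Sprr2a1 end of the cluster, whereas Sprr1a lies toward its other end. Cyp2s1, an epithelial cytochrome P450 on chromosome 7, had 68.8, 719 and 429 normalised counts in the controls and 410, 6251 and 3330 in the knockdown. In these 5 genes control 2 lay above knockdown 1, as for Sprr1a, and control 1 was the lowest library of all but Adm, whose lowest was control 3.

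Sprr2a3 was farther from Sprr1a (1.31) than from its own nearest genes. These were Prap1 (0.78), Enpp3 (0.89), Tmigd1 (0.92), Trim15 (0.94), Adm (1.04) and Myh14 (1.06), and none lies on chromosome 3. Prap1, a proline-rich protein secreted by the gut epithelium, had 14.1, 17.2 and 11.2 normalised counts in the controls and 75.4, 1894 and 364 in the knockdown. Tmigd1, a membrane protein of intestinal and kidney epithelium, had 44.7, 78.1 and 168 and 116, 3092 and 2340. For Tmigd1 control 3 lay above knockdown 1, so its groups overlapped, whereas those of Prap1 did not. Adm (adrenomedullin), with 35.6, 108 and 29.9 and 73.7, 2125 and 970, was among the 6 nearest of both. These genes were chosen for their likeness, so their values are a description.

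**Figure D3:**
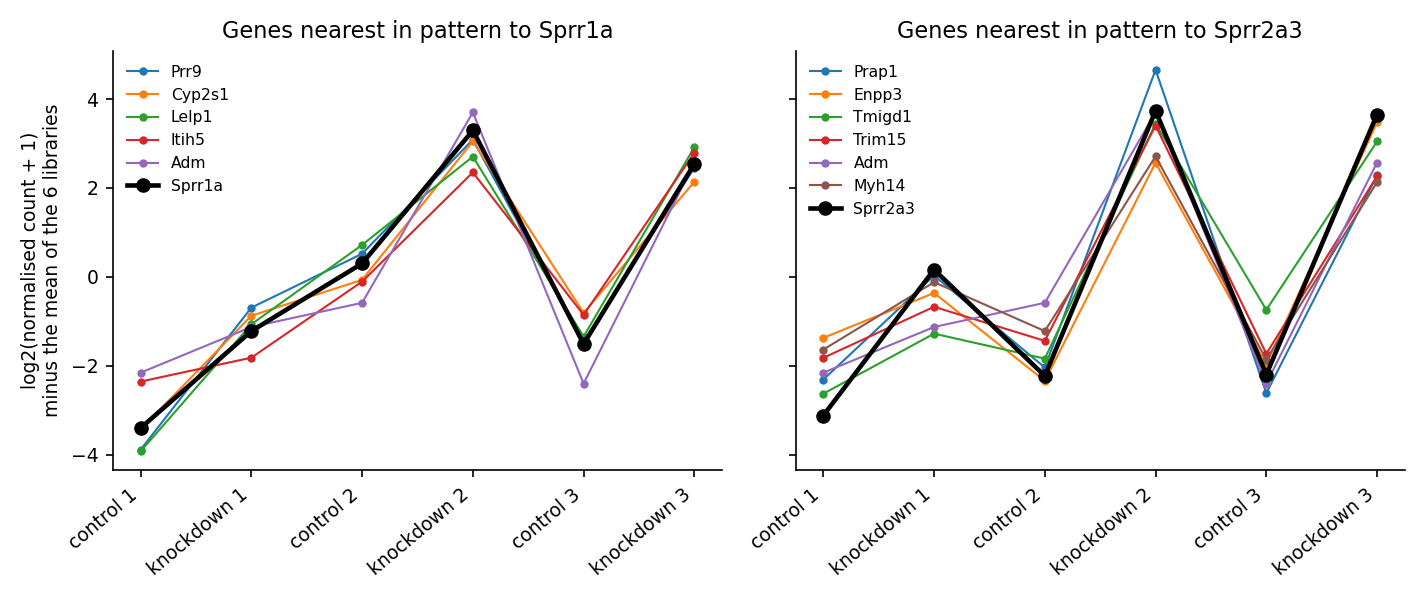
Log2(normalised count + 1) minus the mean of the 6 libraries, for Sprr1a (left, black) and Sprr2a3 (right, black) and genes among the 6 nearest to each in colour (5 on the left, 6 on the right). Lines join libraries in the order of replicate number only to guide the eye: for Sprr1a control 1 is the lowest library and control 2 lies above knockdown 1, and for Sprr2a3 all 3 controls lie below the knockdown libraries.

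Genes around the cornified envelope were then compared through 9 lists with 94 tested genes, some in more than 1 list. Limma called none of the 94 (adjusted p 0.604 to 0.996, with 29 at an unadjusted p under 0.05), as it called none of all 13997 genes (1021 at an unadjusted p under 0.05), and edgeR called none either. A limma fit that took the replicate number into account called none of the 94 (lowest adjusted p 0.136) and 0.0143% of all genes, and such a DESeq2 fit called 22 higher and 6 lower of 91 with an adjusted p, 30.8% against 7.44% of all genes. With replicates 2 and 3 alone limma called 30 of the 94, where it called 9.62% of all genes. The lists were chosen with earlier results of these data known, so these shares, and those of each list below, are printed for scale only. All calls below are those of DESeq2 with the replicate number, which limma on all 6 libraries did not share. On simulated data this fit made more false calls than its threshold allows. Its adjusted p-values here and for the neighbouring genes may therefore be too small, by an amount that was not measured for these genes. Of the genes named below as called, Prss8 (adjusted p = 0.0805), Prdm1 (0.0746), Snai2 (0.0644), Jag1 (0.0703), Rbpj (0.0640) and Msln (0.124) were not called by limma on replicates 2 and 3 alone. Over the 94 genes the median log2 difference in limma was 0.32.

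Other proteins of the envelope were next. Of 46 in the list 13 were listed and 11 tested, and 2 of the 11 were called higher and none lower, where 4.76% of all genes were called higher: Lelp1, described above, and Anxa1. Anxa1 encodes annexin A1, a calcium-dependent membrane protein that is cross-linked into the envelope. It had 12688, 9373 and 11122 normalised counts in the controls and 16730, 22039 and 16278 in the knockdown (log2 0.73, SE 0.22, adjusted p = 0.0200 in DESeq2 with the replicate number), and the groups did not overlap. The most abundant members that were not called were Ppl (periplakin, log2 0.39) and Cstb (cystatin B, log2 0.02). The median of the 11 was 0.24. It is not set against that of the Sprr genes, since the same contrast chose the family.

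Transglutaminases, the enzymes that cross-link Sprr proteins, had no call among 3 tested genes, where 7.44% of all genes were called. Of the 3, 1 had no adjusted p, and with so few genes the absence of a call says little. Tgm1, the main enzyme of keratinocytes, had 59.7, 82.7 and 83.5 normalised counts in the controls and 36.0, 38.1 and 42.8 in the knockdown. All 3 knockdown libraries lay below the controls, with a log2 difference of -0.93 (SE 0.45) and an adjusted p of 0.225 in DESeq2 with the replicate number. Tgm2, the widely expressed tissue transglutaminase, had 255, 1016 and 876 and 667, 772 and 332 (adjusted p = 0.918 in the same fit). The median of the 3 tested genes was -0.76.

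Among enzymes, proteases and inhibitors of cornification 4 of 8 were called higher (4.76% of all genes) and none lower (2.68%), with a median of 0.89. St14 encodes matriptase, a membrane serine protease of epithelia, and had 4410, 1490 and 1208 normalised counts in the controls and 8984, 8300 and 6177 in the knockdown (log2 1.96, SE 0.30, adjusted p = 4.31e-08 in DESeq2 with the replicate number). Its inhibitor Spint1 had 3424, 2362 and 1881 and 5922, 6299 and 5065 (log2 1.21, SE 0.21, adjusted p = 1.74e-06). For both genes every knockdown library was above every control. Prss8, the protease prostasin that acts with matriptase, was called with a log2 difference of 1.18 (adjusted p = 0.00216). Asprv1, the retroviral-like protease that cleaves profilaggrin in skin, had counts of 0.83 to 11.2 in the controls and 7.89 to 60.2 in the knockdown, and its adjusted p of 0.0488 was near the threshold. Serpinb5 (maspin) was not called, at log2 0.50 in limma.

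Keratins of stratified epithelium gave 3 higher (4.76% of all genes) and none lower (2.68%) of 8, with a median of 1.26. Of the 8, 1 had no adjusted p. Krt13, a keratin of squamous mucosa such as oesophagus, had 420, 32.2 and 73.5 normalised counts in the controls and 596, 829 and 1306 in the knockdown (log2 3.27, SE 1.05, adjusted p = 0.0306 in DESeq2 with the replicate number). Krt15, a keratin of basal cells, had 29.0, 2.30 and 4.98 and 41.2, 57.8 and 68.0 (log2 2.87, SE 0.88, adjusted p = 0.0226). Among the controls both were highest in control 1, where Sprr1a was lowest. Krt80 was called at a log2 difference of 1.10 (adjusted p = 5.34e-05). Krt79 and Krt23, abundant and not called, had log2 differences of -0.17 and 0.03 in limma.

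Desmosomes join the cells of squamous layers. Of 9 of their genes 4 were called higher (4.76% of all genes) and none lower (2.68%), with a median of 0.75. Jup (plakoglobin) had 3513, 3498 and 3061 normalised counts in the controls and 6273, 8974 and 8047 in the knockdown (log2 1.20, SE 0.20, adjusted p = 4.87e-07 in DESeq2 with the replicate number). Pkp3 (plakophilin 3) had 1529, 570 and 491 and 2655, 2915 and 1964 (log2 1.72, SE 0.31, adjusted p = 7.34e-06). Groups of both genes did not overlap, as was the case for Dsp (desmoplakin, adjusted p = 0.0125) and Perp (adjusted p = 0.0490). In pair 1, however, the knockdown was close to the control for Dsp and Perp (log2 0.07 and 0.06). Pkp4 and Dsg2 had log2 differences of 0.23 and 0.21 in limma and no call.

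Transcription factors whose motifs were searched in the Sprr promoters were measured too. Of 9 AP-1 subunits 2 were called higher (4.76% of all genes) and none lower (2.68%), with a median of 0.29. Jun had 867, 651 and 704 normalised counts in the controls and 1200, 1057 and 1232 in the knockdown (log2 0.66, SE 0.20, adjusted p = 0.0154 in DESeq2 with the replicate number), with no overlap. Atf3 had 234, 603 and 561 and 380, 1150 and 1494 (log2 1.02, SE 0.23, adjusted p = 0.000927). The more abundant Junb and Jund were not called, at log2 0.41 and 0.26 in limma.

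Of 22 other transcription factors of stratified differentiation 3 were called higher (4.76% of all genes) and 3 lower (2.68%), with a median of 0.09. Ovol1, a repressor that acts in epidermal differentiation, had 43.9, 5.74 and 4.98 normalised counts in the controls and 84.2, 89.7 and 88.6 in the knockdown (log2 2.93, SE 0.74, adjusted p = 0.00347 in DESeq2 with the replicate number). Grhl2, an activator of epithelial junction genes, had a log2 difference of 2.01 (adjusted p = 0.0111), with 426 in control 1 against 10.3 and 18.7 in the other controls. Prdm1, which acts in late keratinocytes and sebaceous cells, had 4.14, 49.4 and 8.72 and 2.63, 246 and 123 (adjusted p = 0.0484), so in pair 1 it was not higher in the knockdown. The called genes that were lower are repressors of epithelial genes: Zeb2 had 47.2, 146 and 234 and 18.4, 20.9 and 26.0 (log2 -2.47, adjusted p = 0.000155), and Snai2 had a log2 difference of -2.44 (adjusted p = 0.00488). The third was Zeb1, at -1.21 (adjusted p = 7.20e-06), which is named to complete the count. Elf3, an epithelial ETS factor, had 6575, 1831 and 1714 and 9486, 20634 and 8092, with no overlap and an adjusted p of 0.0695, and limma on replicates 2 and 3 alone called it higher (log2 2.87, adjusted p = 0.0164). Ehf, of the same family, had a log2 difference of 0.11 in limma.

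Notch genes had a median of -0.30. Of the 10, 1 had no adjusted p, none was called higher (4.76% of all genes) and 2 were called lower (2.68%). These were Jag1, the target of the hairpin, and Rbpj, with 1010, 2450 and 2668 normalised counts in the controls and 690, 1592 and 1806 in the knockdown (log2 -0.58, SE 0.17, adjusted p = 0.0151 in DESeq2 with the replicate number). For Rbpj the groups overlapped and each knockdown was below its own control. Jag2 and Notch2 were not called.

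Sprr1a is also a gene of injured intestine, and 15 genes of the regenerating intestinal epithelium were compared. Of these 5 were called higher (4.76% of all genes) and 1 lower (2.68%), with a median of 0.55. Ly6a, encoding the surface protein Sca-1, had 36835, 27013 and 31097 normalised counts in the controls and 68125, 83372 and 52020 in the knockdown (log2 1.09, SE 0.23, adjusted p = 0.000182 in DESeq2 with the replicate number), and its groups did not overlap. Plaur, the urokinase receptor (adjusted p = 0.000924), and Anxa1 were also called higher. Msln (mesothelin) was lower, with 4393, 22374 and 21352 and 3170, 15958 and 7897 (adjusted p = 0.0224). Clu (clusterin), a marker of regenerating stem cells, had 66472, 401711 and 329237 and 66116, 112655 and 83728 and was not called (adjusted p = 0.541), but limma on replicates 2 and 3 alone called it lower (log2 -1.90, adjusted p = 0.0114).

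**Figure D4:**
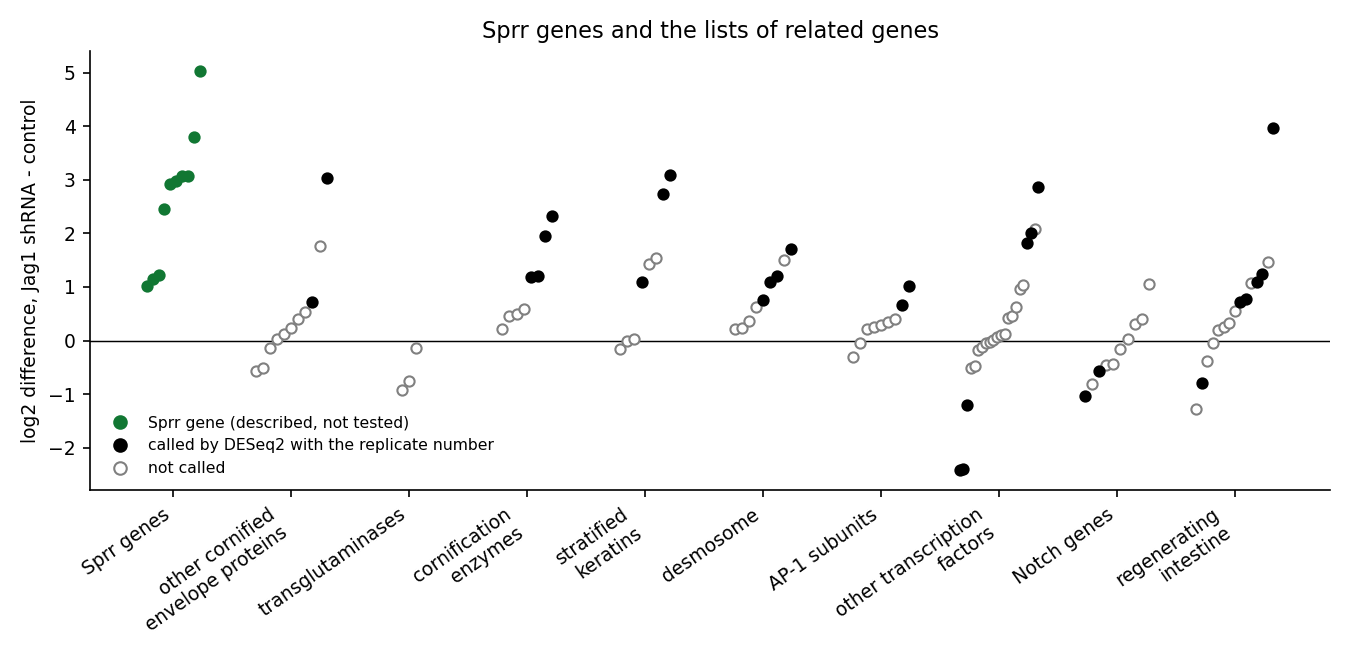
Limma log2 difference, knockdown minus control, of each Sprr gene (green, not tested) and each tested gene of the 9 lists, filled black where DESeq2 with the replicate number gave an adjusted p under 0.05. The Sprr genes, which were chosen by this same contrast, run from 1.02 to 5.03. The genes of the other envelope proteins and of the Notch list lie on both sides of 0.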

How the data were processed

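RNA sequencing libraries were made from total RNA with an unstranded TruSeq kit, per the labels' protocols, so overlapping genes on opposite strands cannot be told apart. Per gene, the authors deposited a normalised count, a signal obtained by dividing the reads by 1 size factor per library. The submitters' processing notes name Trimmomatic, STAR 2.5.2b, DESeq2 1.32.0 and GRCm38; the counting tool and annotation are not given in the sources used here. Within 0.001 of a read, 100% of values were whole reads, which were recovered for count tests. The 6 deposited tables were identical, and copies (5) were left out. The table held 14302 features, 48 of them ERCC spike-ins, and 14219 genes matched a symbol.

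The main test was limma-trend (limma 3.58.1, R 4.3.3) on log2(normalised count + 1), with no covariate, for the 13997 genes with at least 10 normalised counts in at least 3 libraries, and Benjamini-Hochberg adjustment over all of them with a threshold of 0.05. DESeq2 1.42.0 and edgeR 4.0.16 ran on the recovered reads as alternatives. Fits were tested on simulated data, where DESeq2 with the replicate number made more false calls than its threshold allows. The members, lists and rules were chosen with earlier results of these data known. The labels do not say what a replicate number stands for, or whether replicates came from separate cultures. Deviations from the group means correlated at r = 0.67, 0.56 and 0.45 for libraries of the same number, above the threshold of 0.1 for pairs. The crossed combinations of replicates 2 and 3 (r = 0.37 and 0.39) were above it as well. Named genes were all members; from each list, members called by limma, up to 5 called by DESeq2 with the replicate number with the largest change, and the 2 most abundant without a call; the 6 genes nearest in profile to Sprr1a and Sprr2a3; and, within 1000 kb, the nearest gene on each side and the 3 with the largest change. Sequence windows were read from GENCODE M21 and RefSeq. Some genes that this rule names are not reported here.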

Additional observations from a re-analysis of the deposited data

How the results depend on the processing

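The median log2 difference of the 10 Sprr genes was 2.95 and ran from 2.01 to 3.71 over 16 alternatives (pseudocount, scaling, tool, replicate block, libraries left out). Sprr1a (2.14 to 4.46), Sprr2a1 (2.52 to 3.37), Sprr2a2 (2.64 to 3.60), Sprr2a3 (4.42 to 6.21), Sprr2d (1.82 to 4.44), Sprr2i (1.48 to 3.83) and Sprr2k (2.69 to 6.05) kept their direction in all 16. With 1 library left out, Sprr2b ran from -0.21 to 2.62, Sprr2e from -0.093 to 2.57 and Sprr2h from -0.89 to 3.20. Direction turned for Sprr2b (-0.21), Sprr2e (-0.093) and Sprr2h (-0.89) without control 1, and for Sprr2h (-0.23) without knockdown 2; control 1 has 0 to 2 reads of each of these genes. The filter on low values does not enter these member values. Scaling by spike-ins moved the median of all genes to -0.18.

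Of the 94 tested list genes limma called 0. This became 5 with spike-in scaling, 5 with DESeq2, 28 with DESeq2 and the replicate block, 30 with replicates 2 and 3 only, and 0 to 13 when 1 library was left out, with 13 without control 1. Over all genes the count of 0 became 116 with spike-in scaling, 174 with DESeq2, 2 with limma and the replicate block, 2 with edgeR and the block, 1001 with DESeq2 and the block, 1346 with replicates 2 and 3 only, and 0 to 294 when 1 library was left out, with 294 without control 1. The cause was not tested. Members with under 10 reads in a library, which include most Sprr2 genes in replicate 1, have values that counting error alone can move severalfold.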
